A study of Mus musculus with 4 samples.

Results

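Between the binding sites of cohesin subunit SMC3 in mouse spermatocytes lie long autosomal stretches in which no SMC3 summit was listed. A stretch was taken as any interval of 500 kb or more between 2 adjacent SMC3 summits on chromosomes 1 to 19, in the list that passed a false discovery rate (FDR) of 0.1. By this rule 776 of the 16260 autosomal intervals were stretches, or 4.77%. They covered 553 Mb, which is 22.9% of the 2413 Mb between the first and the last SMC3 summit of the autosomes. The stretches were chosen by the SMC3 summit positions themselves, so their number, length and place are given as a description and carry no test.

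The series holds 4 libraries from testis cells of C57BL/6 mice, all carrying an N-terminally LAP-tagged Smc1b construct. The LAP tag includes green fluorescent protein (GFP), and the cells were fixed with formaldehyde and sorted for GFP before chromatin immunoprecipitation and sequencing (ChIP-seq). One library was precipitated with a rabbit polyclonal antibody against SMC3 and one with a goat polyclonal antibody against GFP, which binds tagged SMC1B. Each has an input library, and the inputs were not analysed here. With 1 library per target nothing below has a replicate check. No untagged animals are among the samples, and for the sorted cells neither the meiotic stages nor the age of the animals is stated in the labels. The files hold binding positions only, so the labelled cell type could not be checked against marker genes.

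Cohesin is a ring-shaped complex of SMC and kleisin subunits that holds sister chromatids together and extrudes chromatin loops. SMC3 is part of every cohesin complex, and SMC1B replaces its partner SMC1A in a large part of meiotic cohesin. In meiotic prophase cohesin lies along the whole axis from which chromatin loops emanate, while ChIP-seq summits mark the places where it stalls or accumulates, often at sites of the boundary factor CTCF. A stretch without a summit is therefore a stretch without a detected accumulation, not one shown to lack cohesin. The lists give no read counts, so depth is unknown. No mm9 sequence or gene annotation was used, and coordinates are 1-based mm9 positions.

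On the autosomes SMC3 had 16279 summits at FDR 0.1. SMC1B-LAP had 9522 at FDR 0.1 and 38022 in a looser list at FDR 0.5. Each summit carries a score, the −log10 q-value that the authors' peak caller assigned. The names of the summits carry the running numbers of a longer, unfiltered call, and in all 4 lists these numbers rose with position between 100% of neighbouring autosomal summits. The gap between the numbers of 2 neighbouring summits therefore counts the weaker calls between them that were not listed.

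Most stretches were only a little over the limit. Their median length was 631 kb and the middle 50% ran from 555 to 785 kb, against a median of 89.2 kb for all autosomal intervals. Lengths of 500 to 600 kb were found in 324 stretches, 600 to 750 kb in 224, 750 to 1000 kb in 158 and 1000 to 1500 kb in 60, and 10 were longer. The nearest intervals on either side of the limit measured 500162, 500222 and 500238 bp inside it and 499977, 499446 and 499419 bp outside it.

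Randomly placed summits also leave long gaps. If the same number of summits per autosome were spread uniformly between the first and the last, 566 intervals of 500 kb or more would be expected, covering 15.3% of the length. The observed 776 were 1.37 times as many, and all 19 autosomes had more than their own expectation. The surplus grew with length: 228 intervals reached 750 kb where 108 were expected, 70 reached 1 Mb where 20.9 were expected, and 10 reached 1.5 Mb where 0.818 were expected.

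The size of this surplus at 500 kb depended on how summits that sit close together were counted. When every run of SMC3 summits within 10 kb was reduced to its first summit, 14043 summits were left, and 779 stretches stood against 771 expected, a ratio of 1.01. Only 10 of 19 autosomes then exceeded their expectation. Those expectations are somewhat high, since uniform positions may lie within 10 kb of each other and the reduced summits cannot. The longer intervals kept a surplus after the reduction, with 70 of 1 Mb or more against 43.7 expected and 10 of 1.5 Mb or more against 2.55. In the stricter SMC3 list, at FDR 0.001, 1631 intervals of 500 kb or more stood against 1666 expected, and 151 of 1.5 Mb or more against 108. Against the expectations for the reduced and the stricter list, the number of 500 kb stretches lay within a few percent. The larger departures were in the longest stretches. Whether the reduced list keeps a surplus at 500 kb over uniform positions reduced in the same way was not tested. Part of the longest had few calls of any kind. In 8 stretches, called call-poor from here on and chosen after values were seen, the SMC1B-LAP running numbers stood under 0.306 per kb, the autosomal mean divided by 2. They include 4 of the 10 stretches of 1.5 Mb or more, and 3 of the 4 of 2 Mb or more. Without them, and with close summits counted once, 65 intervals of 1 Mb or more stood against 42.0 expected and 6 of 1.5 Mb or more against 2.41.

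**Figure D1:**
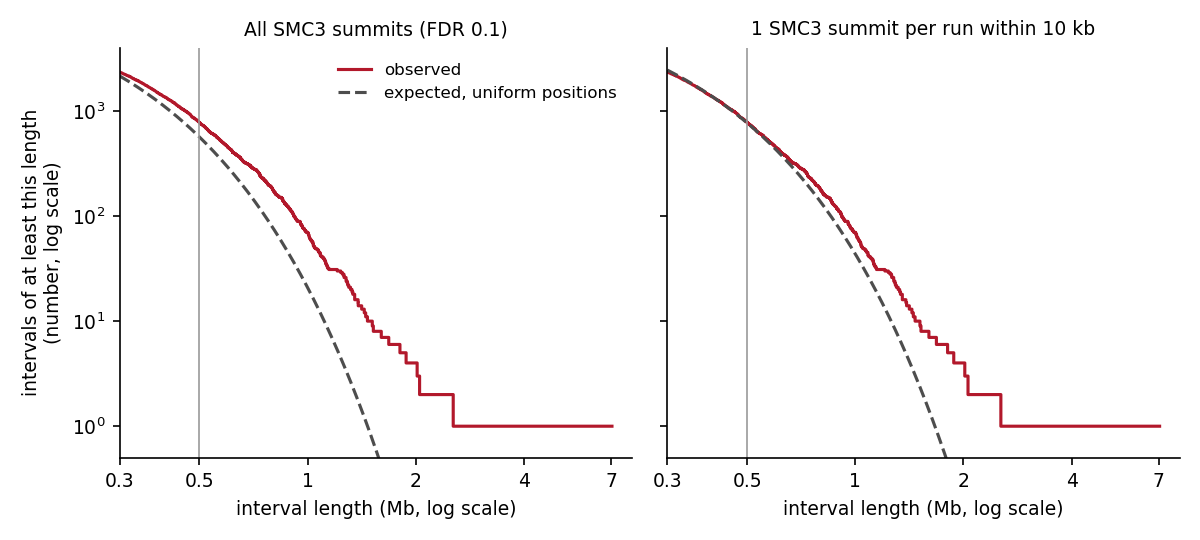
Number of autosomal intervals between adjacent SMC3 summits (y axis, log scale) that are at least as long as the value on the x axis (Mb, log scale), for all FDR 0.1 summits (left) and with 1 summit per run within 10 kb (right). The solid line is observed, the dashed line the exact expectation for uniform positions, and the vertical line marks 0.5 Mb. There 776 stand against 566 expected on the left and 779 against 771 on the right, and the lines part at greater lengths in both panels. The dashed line on the right allows positions within 10 kb of each other and is therefore somewhat high.

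Stretches occurred on every autosome. They took up the largest share of chromosome 11 (32.2%, 57 stretches), chromosome 19 (30.4%, 25 stretches) and chromosome 8 (28.4%, 45 stretches). Call-poor stretches are counted in these shares, among them those of 2.05 and 1.88 Mb on chromosome 8. The smallest shares were those of chromosome 16 (16.4%, 22 stretches), chromosome 10 (17.3%, 33 stretches) and chromosome 14 (17.4%, 27 stretches). Chromosomes 11 and 19 also had the fewest SMC3 summits per Mb, 5.62 and 5.56, and chromosome 14 the most, 7.84, and for these 3 the uniform expectation alone gave shares of 22.9%, 23.5% and 9.74%. Relative to its own expectation the number of stretches was highest on chromosome 4, with 51 against 29.2, and on chromosome 12, with 39 against 24.4. It was close to expectation on chromosomes 16 (22 against 20.3) and 18 (25 against 23.0). These expectations count every SMC3 summit, also those close together.

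Along the autosomes the stretches were spread widely. Mouse autosomes have the centromere at the end where coordinates start, and the first 10% of their extent lay in stretches for 16.5% of its length. The other parts of 10% each ranged from 22.4% to 25.8%, with the highest value in the last. As a mean over autosomes the highest was instead the fifth, at 26.1% ± 14.6. That part holds the call-poor stretches chr1:85343568-87361317 and chr8:56064534-57944470, and the ranking without them was not computed. Autosomes differed greatly in the first 10% (17.9% ± 15.4, mean and SD over 19 autosomes), and 5 of 19 exceeded their own chromosome mean there. In the last 10% the value was 24.9% ± 11.5, and 12 of 19 were above their own mean.

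Some stretches followed each other with a single SMC3 summit between them. This was so for 60 pairs, where a random order of the intervals within each autosome gives 38.7. The pairs involved 114 stretches, in 48 runs of 2 and 6 runs of 3. The longest run of 3 was chr10:75587543-77988663, where 2.40 Mb held 2 internal SMC3 summits. A longer run, of 2 stretches, was chr8:10612647-13722066, 3.11 Mb with a single internal SMC3 summit.

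The 1492 SMC3 summits at the ends of stretches resembled other autosomal SMC3 summits. Their median score was 2.40, against 2.57 for the other 14787, and 40.5% against 40.9% also passed FDR 0.001. An SMC1B-LAP FDR 0.1 summit lay within 500 bp of 110 of them, or 7.37% (exact Clopper-Pearson 95% interval 6.10% to 8.82%), against 8.21% (7.77% to 8.66%) of the others. With the FDR 0.5 list the shares were 14.1% (12.3% to 15.9%) and 14.6% (14.0% to 15.2%). For both lists the interval of the end summits included the share of the others, so a difference was not detectable. The 60 summits between neighbouring stretches had a median score of 1.69, and 5 of them had an SMC1B-LAP FDR 0.1 partner.

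SMC1B-LAP comes from another antibody and another library, which the rule did not use. Its summits were counted inside the stretches, over 5 kb from either end, and set against the rest of the autosomal extent. Inside lay 1226 FDR 0.1 summits on 545 Mb, or 2.25 per Mb (exact Poisson 95% interval 2.12 to 2.38). The rest held 8199 on 1868 Mb, or 4.39 per Mb (4.30 to 4.49). The ratio was 0.512 (0.482 to 0.544, two-sided exact binomial test, Benjamini-Hochberg adjusted p = 6.81e-124 over the 2 lists). For the FDR 0.5 list, 6236 summits inside gave 11.4 per Mb and 31641 in the rest gave 16.9 per Mb, a ratio of 0.675 (0.657 to 0.694, adjusted exact binomial p = 3.91e-192). SMC1B-LAP was thus sparser where SMC3 summits were missing, but the stretches were not empty of it.

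Independence of summits is assumed in these p-values, which are too small where summits cluster. With 1 SMC1B-LAP summit per run within 10 kb the ratios were 0.538 and 0.739. Intervals and p-values cover the counting error of summits in these 2 libraries only.

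Every autosome showed the same direction. The FDR 0.1 ratio was below 1 on 19 of 19 autosomes, from 0.392 on chromosome 7 through a median of 0.526 to 0.750 on chromosome 15, and the upper end of the interval was below 1 on each. The low value of chromosome 7 rested on its call-poor stretch of 7.03 Mb, and without call-poor stretches it was 0.467, with chromosome 3 lowest at 0.412. On chromosome 15, the nearest to 1, the interval ran from 0.569 to 0.976. The FDR 0.5 ratio ran from 0.554 on chromosome 7 to 0.813 on chromosome 13, again with all 19 intervals below 1. Without call-poor stretches chromosome 7 stood at 0.666, and the range was 0.620 on chromosome 14 to 0.835 on chromosome 13.

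**Figure D2:**
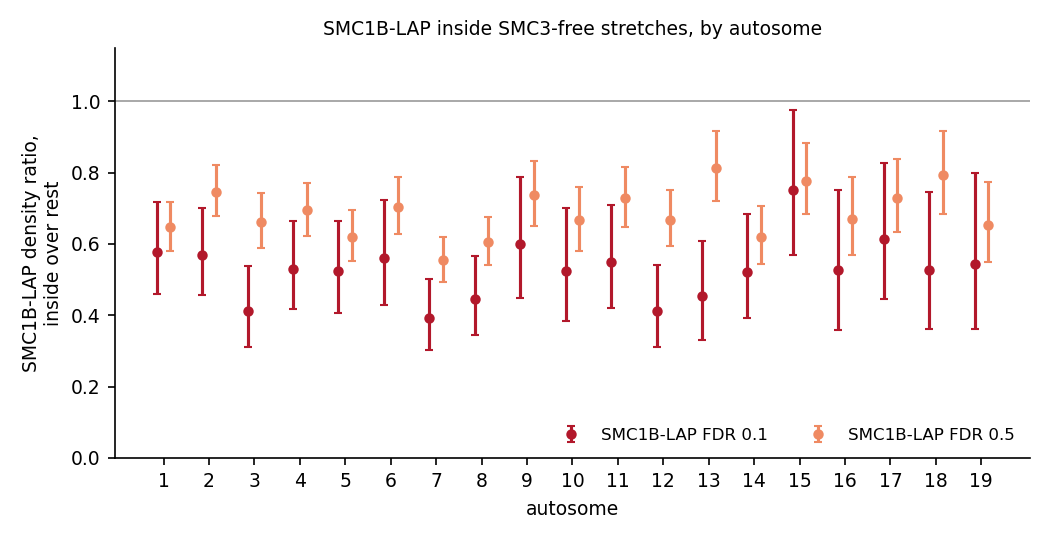
Density of SMC1B-LAP summits inside the stretches divided by the density in the rest of the same autosome (y axis), for autosomes 1 to 19 (x axis) and both SMC1B-LAP lists; bars are exact 95% intervals for counting error. All points lie below the line at 1, from 0.392 to 0.750 at FDR 0.1 and from 0.554 to 0.813 at FDR 0.5; the low points of chromosome 7 include its call-poor stretch, without which they are 0.467 and 0.666.

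How large the difference was depended on what the stretches were compared with. The rest of the autosomes includes the SMC3 sites themselves, where SMC1B-LAP summits coincide with SMC3. Without the 5 kb on either side of SMC3 summits the rest held 3.27 SMC1B-LAP FDR 0.1 summits per Mb, and the ratio was 0.688 (0.647 to 0.732). Against intervals of 100 kb to under 500 kb alone, 6805 in number and with 5 kb left out at either end, it was 0.725 (0.680 to 0.773). In a comparison chosen after values were seen, the rest was confined to positions within 500 kb of a stretch and over 5 kb from any SMC3 summit, which held 2.81 per Mb. The ratio was then 0.799 (0.740 to 0.862, adjusted exact binomial p = 5.84e-09), and 0.843 (0.815 to 0.873) at FDR 0.5. The shortfall was therefore smaller, though present, against neighbouring sequence. That sequence was itself less dense: outside stretches, places within 500 kb of one held 3.93 SMC1B-LAP FDR 0.1 summits per Mb and places farther away 4.53. The corresponding SMC3 values, without the end summits, were 7.31 and 8.21.

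The density of SMC1B-LAP declined in steps with the length of the SMC3-free interval, also below 500 kb. At FDR 0.1 it was 5.25 per Mb in intervals of 10 to 50 kb, 3.34 in those of 100 to 200 kb and 2.94 (2.81 to 3.09) in those of 300 to 500 kb. Within the stretches it was 2.52 (2.28 to 2.76) at 500 to 600 kb, 2.35 (2.10 to 2.61) at 600 to 750 kb and 1.98 (1.74 to 2.23) at 750 to 1000 kb. Above 1 Mb it was 1.99 (1.71 to 2.29), or 2.28 without the 5 call-poor stretches among the 70. The limit of 500 kb was thus a point on a gradual decline that at FDR 0.1 went on to 750 to 1000 kb. The FDR 0.5 list fell from 20.9 per Mb at 10 to 50 kb to 13.3 at 300 to 500 kb and 12.3 at 500 to 600 kb. It was 10.9 (10.3 to 11.5) at 750 to 1000 kb and 9.32 (8.71 to 9.96) above 1 Mb, or 10.8 there without the call-poor stretches. Those were picked by their few SMC1B-LAP calls, so leaving them out raises the SMC1B-LAP density by selection. Intervals under 500 kb were not screened in this way.

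**Figure D3:**
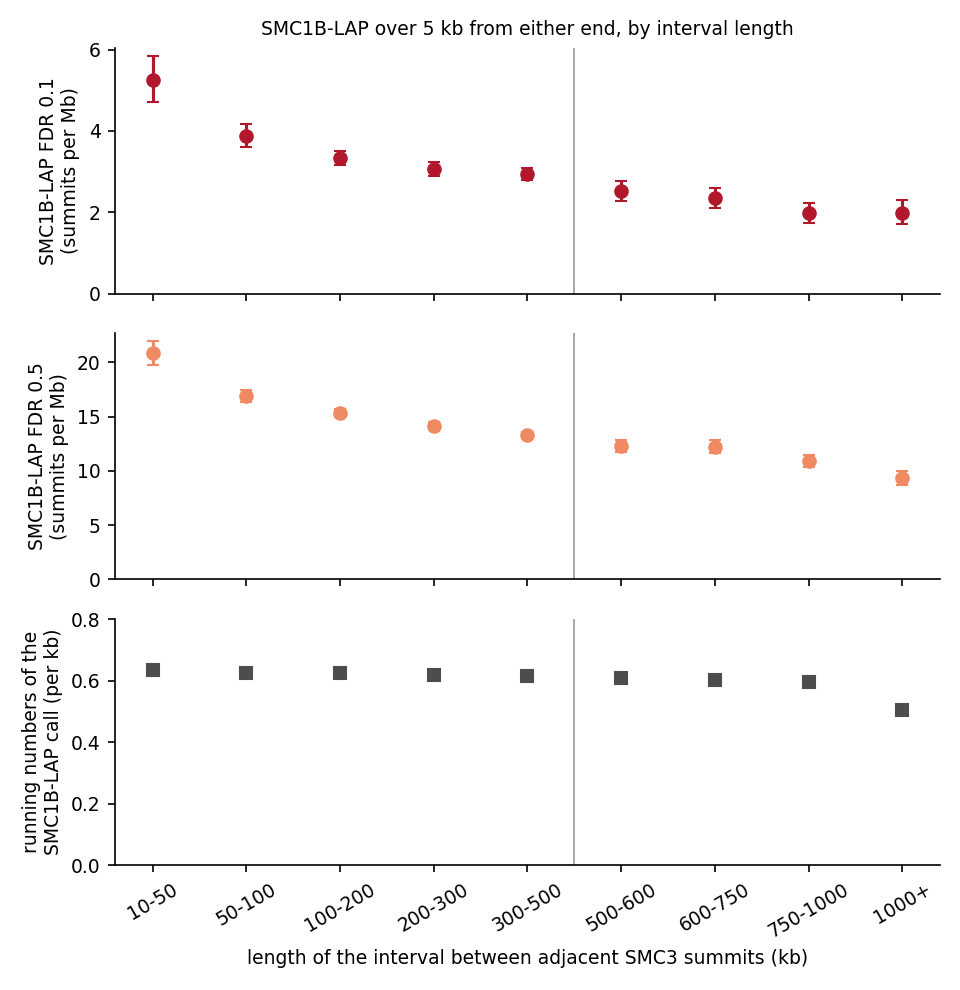
SMC1B-LAP summits per Mb over 5 kb from either end of the interval, at FDR 0.1 (top) and FDR 0.5 (middle), and running numbers of the longer SMC1B-LAP call per kb (bottom), by length class of the interval between adjacent SMC3 summits (x axis, kb); bars are exact Poisson 95% intervals and the vertical line marks 500 kb. The listed summits decline from 5.25 to 1.99 and from 20.9 to 9.32 per Mb, while the running numbers go from 0.635 to 0.504 per kb; without 5 call-poor stretches the last class stands at 2.28 and 10.8 per Mb and 0.590 per kb.

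At like distances from the nearest SMC3 summit, the SMC1B-LAP density was lower in stretches than in shorter intervals in each of the classes up to 250 kb, though not always beyond counting error. At 5 to 25 kb from an SMC3 summit, the FDR 0.1 density was 2.67 per Mb (2.13 to 3.31) in stretches and 3.85 (3.67 to 4.03) in shorter intervals. At 50 to 100 kb the values were 2.38 (2.05 to 2.75) and 3.05 (2.89 to 3.20), and at 150 to 200 kb 2.18 (1.86 to 2.53) and 2.92 (2.60 to 3.27). The intervals overlapped at 25 to 50 kb, with 2.63 (2.14 to 3.19) and 3.26 (3.09 to 3.44). They also overlapped at 200 to 250 kb, which in shorter intervals leaves only 27.3 Mb, with 2.53 (2.18 to 2.91) and 2.60 (2.03 to 3.28). At FDR 0.5 they overlapped at 150 to 200 kb, with 11.8 (11.0 to 12.6) and 12.9 (12.2 to 13.6), and at 200 to 250 kb. Over 250 kb from either end, deep in the stretches, 329 summits on 165 Mb gave 1.99 per Mb (1.78 to 2.22).

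**Figure D4:**
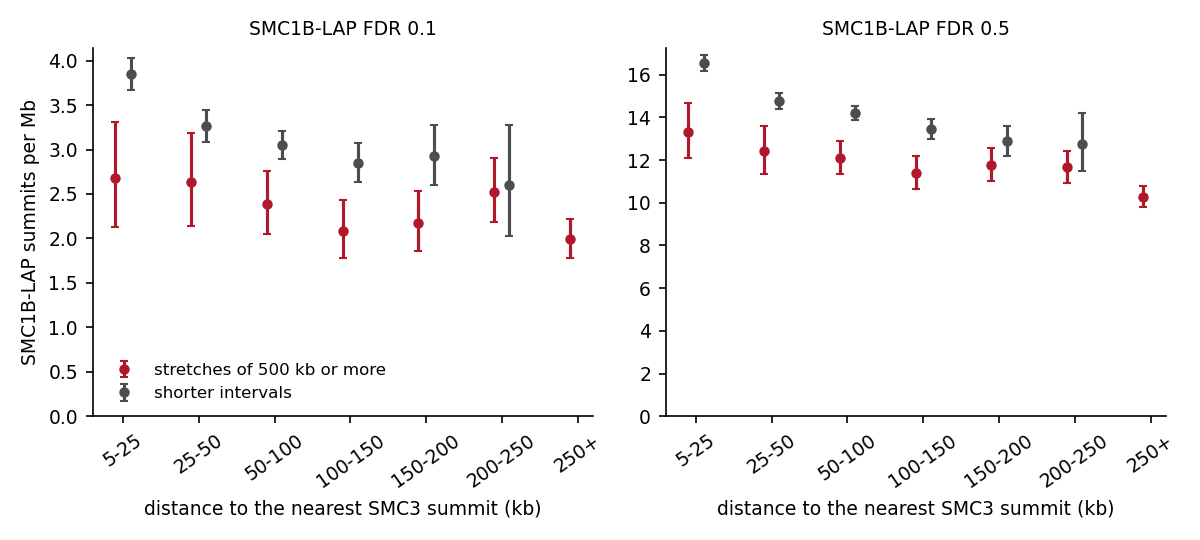
SMC1B-LAP summits per Mb (y axis) by distance to the nearest SMC3 summit (x axis, kb), at FDR 0.1 (left) and FDR 0.5 (right), in stretches and in shorter intervals; bars are exact Poisson 95% intervals. In the nearest class the stretches stand at 2.67 and the shorter intervals at 3.85 per Mb at FDR 0.1, and the bars overlap at 25 to 50 and 200 to 250 kb at FDR 0.1 and from 150 kb at FDR 0.5.

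Strong SMC1B-LAP summits were rare inside the stretches. At scores of 10 or more 5 lay inside and 134 in the rest, a density ratio of 0.128 (0.0408 to 0.306), whereas at scores of 1 to 1.5 the ratio was 0.584 (0.542 to 0.629). This gradient was not seen when positions near SMC3 summits were left out of the rest. The ratios were then 0.657 (0.196 to 1.76) at scores of 10 or more, 0.678 (0.504 to 0.899) at 3 to 10, 0.644 (0.570 to 0.726) at 1.5 to 3 and 0.708 (0.656 to 0.764) at 1 to 1.5. High-scoring SMC1B-LAP summits lay mostly within 5 kb of SMC3 summits, since only 24 of the 134 in the rest were farther away. Inside the stretches 681 of 1226 summits, or 55.5%, had the most frequent score of the list, 1.07, as did 4517 of all 9522 autosomal summits.

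The 5 highest-scoring SMC1B-LAP summits inside a stretch lay 153 to 456 kb from the nearest listed SMC3 summit. The highest, at position 83417357 of chromosome 10, scored 35.5, which ranked 20 among the autosomal SMC1B-LAP summits, and was 163 kb from the nearer end of its stretch (chr10:83254360-83991065). The next scored 24.0 at position 58952080 of chromosome 15, 456 kb from the nearer end of a stretch of 1036 kb (chr15:58371953-59407580). The next 2 scored 16.8 at 125973653 on chromosome 2 and 16.3 at 150554324 on chromosome 7, at 153 and 207 kb from the nearer end. The last of the 5 scored 14.1 at 84032968 on chromosome 3, 380 kb from the nearer end of chr3:83408441-84413310. A distance from SMC3 summits follows from the rule for any SMC1B-LAP summit inside a stretch. Whether these 5 lay farther away than the other SMC1B-LAP summits inside was not tested.

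Single stretches varied widely in their SMC1B-LAP content. At FDR 0.1, 213 of 776 (27.4%) held no SMC1B-LAP summit inside, 217 held 1 and 346 held 2 or more, and the highest count was 8. Independent placement at the density of the rest would leave 48.6 stretches without one, and at the stretches' own mean density 178. The density was below that of the rest in 664 stretches. With so few summits per stretch many would lie below it by counting alone, and that number was not computed. The share without a summit fell with length, from 34.0% at 500 to 600 kb to 11.4% above 1 Mb. Longer intervals are less often empty by counting alone, and an expected share for each length class was not computed. At FDR 0.5 none of the 776 was without a summit. Independent placement would leave only 0.0466 empty at the density of the rest and 0.905 at the stretches' own. In this list 6 held 1, the median was 7 and the highest count was 27, in chr2:162484951-164167062. Of its 38022 autosomal summits 26039 share the most frequent score, 0.406.

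The fullest stretches by SMC1B-LAP FDR 0.1 summits were shorter than 1 Mb. The stretches chr8:104826295-105460257 and chr15:60242462-60980296 each held 8, or 12.8 and 11.0 per Mb. With 7 each followed chr8:5882718-6861858, chr5:61329735-61927391 and chr11:17644292-18242343, at 7.22, 11.9 and 11.9 per Mb. All 5 exceeded the 4.39 per Mb of the rest of the autosomes, but they were picked as the highest counts among 776 stretches. Whether independent placement would also give counts this high was not tested. Their lack of SMC3 summits follows from the rule.

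Weak calls were nearly as dense in the stretches as elsewhere. The longer SMC1B-LAP call had 0.586 running numbers per kb in the stretches and 0.620 in the rest, a much smaller difference than that of the listed summits. Per 1000 running numbers, 3.84 SMC1B-LAP summits passed FDR 0.1 inside the stretches and 7.08 in the rest, a ratio of 0.542 (0.510 to 0.576). For FDR 0.5 the values were 19.5 and 27.3 and the ratio 0.715 (0.695 to 0.734). SMC3 itself had 17829 unlisted calls in the stretches, or 32.2 per Mb, against 30.8 per Mb between more closely spaced summits. Unlike the SMC1B-LAP running numbers, these SMC3 values leave out listed summits. Outside the stretches 8.75 listed SMC3 summits per Mb come on top, and inside there are none by the rule. What these weak calls stand for is not known, since no source used here states the cutoff of the longer call.

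The 8 call-poor stretches, 16.0 Mb in all, were uneven among themselves. Their SMC1B-LAP running numbers ran from 0.00595 to 0.289 per kb, against 0.327 to 0.793 in the other 768 and an autosomal mean of 0.612. Whether the assembly has unresolved or repeated sequence there was not tested. The longest stretch of all was the poorest in calls. It was chr7:39350896-46382323, 7.03 Mb with 1 SMC1B-LAP summit at FDR 0.1, 2 at FDR 0.5, a single unlisted SMC3 call and 0.00595 SMC1B-LAP running numbers per kb. Among the 10 longest, chr8:20038531-22088147 (2.05 Mb, 0.0183 per kb), chr1:85343568-87361317 (2.02 Mb, 0.00862 per kb) and chr8:56064534-57944470 (1.88 Mb, 0.0587 per kb) also had few. In these 4 stretches the lists cannot tell a lack of binding from a lack of calls of any kind.

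The remaining 4 of the 8 were shorter. The stretch chr5:25319195-26329332 had 0.0605 running numbers per kb and chr13:92003417-92813940 had 0.131. At the end of chromosome 2, chr2:174935723-175572259 and chr2:176250735-176863635 had 0.279 and 0.289 but held 12 SMC1B-LAP FDR 0.5 summits each. Of their 16 end summits 3 scored 10 or more, as did 132 of all 1492 end summits (8.85%). The chromosome 13 stretch ended at the highest-scoring SMC3 summit of the list (score 116), while chr8:56064534-57944470 and chr5:25319195-26329332 began at summits with scores of 47.8 and 20.3. Without the 8 stretches 768 stood against 553 expected, and the SMC1B-LAP ratios were 0.523 and 0.691.

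**Figure D5:**
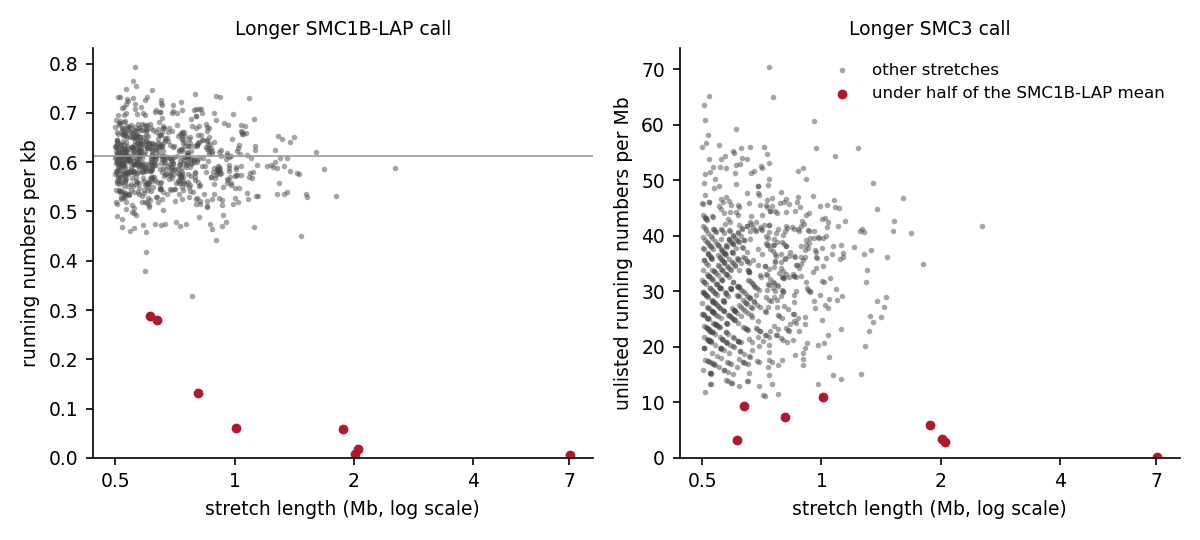
Running numbers of the longer SMC1B-LAP call per kb (left) and unlisted running numbers of the longer SMC3 call per Mb (right) in each of the 776 stretches, against stretch length (x axis, Mb, log scale); the horizontal line is the autosomal SMC1B-LAP mean of 0.612 per kb. The 8 larger points are the call-poor stretches, under 0.306 per kb, the longest at 7.03 Mb, and the other 768 lie between 0.327 and 0.793 per kb.

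The other 6 of the 10 longest stretches had an ordinary supply of weak calls. The longest of them, chr8:10612647-13155132, spanned 2.54 Mb with 106 unlisted SMC3 calls (41.7 per Mb), 0.588 SMC1B-LAP running numbers per kb, and 4 SMC1B-LAP summits at FDR 0.1 and 23 at FDR 0.5. Both its end summits had low scores of 1.37. It was followed by chr1:93010929-94818056 with 1.81 Mb and 3 SMC1B-LAP FDR 0.1 summits. On chromosome 2, chr2:162484951-164167062 held 4 in 1.68 Mb and chr2:152520173-154123568 held 6 in 1.60 Mb. The last were chr7:35451657-36975507, with 6 in 1.52 Mb, and chr12:113008396-114522112, with 2 in 1.51 Mb and end summits scoring 21.4 and 6.31. In these 6 the SMC1B-LAP running numbers stood between 0.529 and 0.620 per kb and the unlisted SMC3 calls between 34.9 and 46.8 per Mb.

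The SMC1B-LAP list had long empty intervals of its own, and these overlapped the stretches in part. Its FDR 0.1 summits left 1418 autosomal intervals of 500 kb or more, against 1321 expected from uniform positions, covering 49.8% of its extent. That expectation counts every SMC1B-LAP summit, also those close together, and one with close summits counted once was not computed. The 1418 intervals overlapped 362 Mb of the SMC3-free stretches, which is 65.5% of the length of the stretches and 30.2% of that of the SMC1B-LAP-free intervals. Between more closely spaced SMC3 summits 45.0% of the length lay in such intervals. Wholly contained in an SMC1B-LAP-free interval of this length were 175 stretches, or 22.6%. Such stretches have no SMC1B-LAP FDR 0.1 summit between their ends, so this count is no separate result. Over 5 kb from either end 213 had none, where independent placement at the stretches' own mean density gives 178.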

How the data were processed

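ChIP-seq summits of SMC3 and SMC1B-LAP (1 library each) were analysed. Per the submitters' processing notes the authors used Bowtie2 0.12.8, MACS2 and the mouse build mm9. The handling of inputs, duplicates and multiply mapped reads is not given in the sources used here, nor is the cutoff of the longer call. The deposited files list 1 bp summits with a score that the authors gave as −log10 of the q-value. This reading was checked on the values, the lowest SMC3 score at FDR 0.1 being 1.00. Depth per sample is unknown.

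Members and lists were chosen with earlier results of these data known. The expectation for uniform positions is exact, from the number of summits and the extent of each autosome. For the list with 1 summit per run it does not exclude positions within 10 kb of each other. Density ratios were tested with two-sided exact binomial tests (SciPy 1.17.1, Python 3.11.15), adjusted by Benjamini-Hochberg over 2 lists at a threshold of 0.05, with exact 95% intervals. Running numbers inside a stretch were interpolated between SMC1B-LAP FDR 0.5 summits. The procedures were tested on simulated data. Regions named were the 10 longest stretches, the 5 with most SMC1B-LAP FDR 0.1 summits, the 5 highest-scoring SMC1B-LAP summits inside, the 3 autosomes with most and with least length in stretches, and the 3 intervals on either side of the limit. The longest stretch with no SMC1B-LAP FDR 0.5 summit was to be named too, and none exists. Chromosomes 4, 12, 15, 16 and 18, the runs and the 8 stretches with few calls were chosen after values were seen. X, Y and the mitochondrial genome were left out.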

Additional observations from a re-analysis of the deposited data

How the results depend on the processing

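The number of stretches was 2345, 1361, 228 and 70 with limits of 300, 400, 750 and 1000 kb, and 1631 with the SMC3 list at FDR 0.001; fewer or more intervals qualify by construction. The ratio to the uniform expectation was 1.09, 1.23, 2.11, 3.35 and 0.979 in these cases, and 1.39 with 1 pooled density. Both SMC1B-LAP ratios stayed below 1 and past the threshold under all 35 alternatives each, of which 19 left out 1 autosome and gave 0.503 to 0.522 at FDR 0.1 and 0.669 to 0.685 at FDR 0.5. The other 16 gave 0.427 (without the most frequent score) to 0.799 (nearby rest) and 0.503 to 0.843. No paired analysis was possible because each target has 1 library. Depth is unknown, so a stretch without a listed summit may hold sites that deeper sequencing would list.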
